A study of Arabidopsis thaliana with 12 samples.

Results

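Inflorescence tips of Arabidopsis thaliana collected 1 day after steroid treatment were compared with tips collected 1 day after mock treatment, as the earliest time at which a response to activated AGAMOUS was measured. The samples were taken by their titles: 2 titled steroid day 1 and 2 titled mock day 1, which makes 4 of the 12 arrays of the series, and the comparison covers all probe sets of the ATH1 array. All plants, mock-treated ones included, carried 2 mutations in the homozygous state, ap1-1 together with cal-1, and also 35S:AGGR, a fusion of AGAMOUS to the hormone-binding part of the rat glucocorticoid receptor under the viral 35S promoter, which is active in most tissues. Steroid tips received 10 µM dexamethasone in 0.1% ethanol and 0.015% Silwet L-77, a wetting agent. Mock tips received the ethanol and Silwet L-77 alone. Plants were kept at 18 °C under 16 h of light and 8 h of dark. RNA was used after activation of the fusion had been seen in the treated plants, per the labels. No plants without the fusion were treated, so responses to dexamethasone itself and to AGAMOUS cannot be told apart. The later arrays, 2 steroid and 2 mock on each of days 3 and 7, serve below to estimate the spread and to follow the probe sets that differed on day 1.

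AGAMOUS is a MADS-domain transcription factor that specifies stamens and carpels and ends the activity of the floral stem cells. A receptor fusion of this kind stays in the cytoplasm until steroid lets it enter the nucleus, so that target genes can respond at a chosen time. Plants lacking both AP1 and CAL make masses of inflorescence-like meristems in place of flowers, which gives many meristems at the same stage. In whole tips, more cells that express a gene and more RNA per cell cannot be told apart.

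The 4 day 1 arrays did not fall into groups by treatment. Pearson's r of log2 signal over the 16511 tested probe sets (not independent replicates) was 0.887 between the steroid arrays and 0.887 between the mock arrays. Between a steroid and a mock array it ran from 0.873 to 0.905. The GAPDH ratio (3′ probe set over 5′ probe set), which reflects how intact the labelled RNA is, was 7.94 and 8.47 on the steroid arrays, against 4.16 and 11.2 on the mock arrays, so the groups overlapped in it. Mock replicate 1 was read in a scan of its own (scan 3), and the other 3 arrays shared scan 5, so a comparison within one scan rests on mock replicate 2 alone. Deposited medians were 18.5 and 18.8 on the steroid arrays, against 16.1 and 20.8 on the mock arrays, and every array was scaled to a common median of 24.8. Day 1 replicates had a median residual SD of 0.335 (log2), close to 0.321 for day 3 and far above the 0.132 of day 7. The spread for the test was therefore estimated from the 8 arrays of days 1 and 3, and the tighter day 7 arrays stayed out of it.

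No probe set passed the test on day 1. limma called 0 of 16511 (0%) at a Benjamini-Hochberg adjusted p of 0.05, and 681 (4.12%) had an unadjusted p under 0.05, of which 318 were higher and 363 lower with steroid; chance alone gives 826. With the spread taken from all 12 arrays it called 3 (0.0182%): AT3G11000 plus 260355_at and 263333_at, probe sets left unnamed by the annotation used here; 1374 (8.32%) had an unadjusted p under 0.05. From the 4 day 1 arrays alone it called 0, with 517 (3.13%) at an unadjusted p under 0.05. Without mock replicate 2 of day 1 the count was 16, of which 4 were higher, AT3G05190 among them, and without any other single array of days 1 and 3 it was 0. The values that follow therefore describe what these arrays read; "higher" and "lower" name the side on which the steroid arrays lay, not a change that passed the test. With 2 arrays a group, the smallest p that exact permutation allows is 0.333.

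Separation of the arrays alone was common. Both steroid arrays lay above both mock arrays for 2334 probe sets (14.1%) and below both for 2819 (17.1%). By chance alone, 2 against 2 arrays separate in either direction with a probability of 0.333. Adding a fitted difference of at least 2-fold and a mean at or above the array median in the higher group left 159 higher (0.963%) and 145 lower (0.878%). Fold changes are on the scale of log2(signal + 4.35), so they understate ratios of weak signals.

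The probe set with the largest difference had no gene name. Probe set 260355_at read 52.2 and 62.8 in steroid tips, against 2.00 and 2.50 in mock tips (scaled signal). The mock values lie below the added offset of 4.35, near the bottom of the arrays, and the steroid values above the array median. The fitted difference was 9.34-fold (log2 3.22, 95% interval 2.12 to 4.32, limma adjusted p = 0.352). Probe set 254197_at read 37.3 and 81.0 in steroid tips, against 2.31 and 4.89 in mock tips (log2 2.93, SE 0.50, limma adjusted p = 0.355). Probe set 251898_at read 25.7 and 32.6 in steroid tips, against 0.924 and 1.07 in mock tips (log2 2.64, SE 0.58). At 261768_at the steroid tips read 51.3 and 63.1, against 14.5 and 2.98 in mock tips. These 4 probe sets were chosen among those with separated groups, so the lack of overlap is no result. The probe set 263333_at, called only with 12 arrays, read 24.8 and 19.5 in steroid tips, against 0.616 and 1.67 in mock tips (log2 2.27).

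Among genes with a name, AT3G11000 combined a clear level with close replicates. It read 107 and 97.8 in steroid tips, against 30.6 and 27.0 in mock tips. Its fitted difference was 3.23-fold (log2 1.69, SE 0.28, 95% interval 1.09 to 2.29, limma adjusted p = 0.352), and within scan 5 the log2 difference was 1.77. The named gene with the largest difference on the higher side was AGL19, a MADS-box gene known to promote flowering. AGL19 read 18.1 and 31.9 in steroid tips, against 2.00 and 1.19 in mock tips (log2 2.27, SE 0.59, 95% interval 1.00 to 3.53, limma adjusted p = 0.999). Its steroid signals straddled the array median and its mock signals lay at the bottom of the arrays.

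The other named genes on the higher side were weakly expressed, with 1 exception. AT3G15450 read 254 and 1895 in steroid tips, against 165 and 213 in mock tips, so its log2 difference of 1.87 rests on steroid replicate 2 and was 0.43 without it. AT3G47260 (2.18), AT1G80450 (2.13), AT1G64180 (2.03) and AT2G30940 (1.91) had log2 differences near that of AGL19, from mock signals at the bottom of the arrays. AT3G05190 (1.88), AT2G13970 (1.85), AT3G29140 (1.66) and AT3G02555 (1.64) followed. The last of the 12 was ccb206, a mitochondrial gene for cytochrome c maturation, at 20.8 and 34.0 in steroid tips, against 2.62 and 10.5 in mock tips (log2 1.61). Among these 12 genes, counting AT3G11000 and AGL19, 5 had a mock mean below the offset. Besides AT3G15450, leaving out 1 array brought 3 of them down by over 1.5 times: AT3G05190 to 0.89 and ccb206 to 1.07 without mock replicate 1, and AT3G02555 to 0.82 without mock replicate 2. Against mock replicate 2 alone, the array of the same scan, their log2 differences ran from 0.89 to 2.47.

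**Figure D1:**
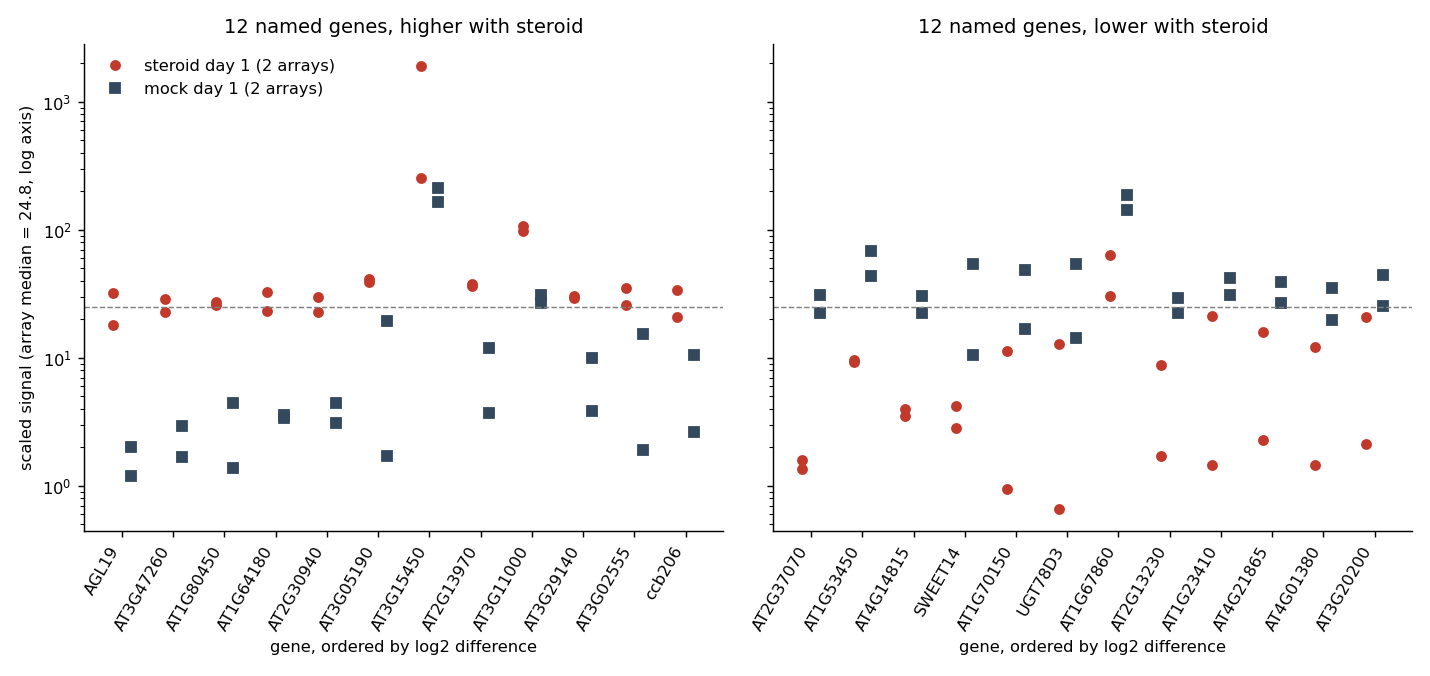
Scaled signal (log axis) of the 12 named genes with the highest and the 12 with the lowest day 1 difference, 2 steroid arrays (circles, left) and 2 mock arrays (squares, right) for each gene. The dashed line is the common array median of 24.8. All mock points of AT3G11000, AT3G15450 and AT1G67860 lie above it, and so do most of the points of the side with the higher signal in the other genes.

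The 12 named genes furthest on the lower side were mostly weak as well, apart from AT1G67860. AT2G37070 read 1.34 and 1.58 in steroid tips, against 22.2 and 30.8 in mock tips (log2 -2.39, SE 0.64). AT1G53450 read 9.65 and 9.23 in steroid tips, against 43.1 and 67.8 in mock tips (log2 -2.09, SE 0.44, 95% interval -3.03 to -1.14). Its steroid arrays were close to each other, and of the 12 it had the lowest unadjusted p. AT1G67860, whose mean put it among the bright probe sets described below, was the brightest of them, at 30.4 and 64.0 in steroid tips, against 142 and 187 in mock tips (log2 -1.78, SE 0.47); with replicate number as a block it passed the test (limma adjusted p = 0.0134).

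SWEET14, a sugar transporter gene, read 2.81 and 4.22 in steroid tips, against 10.5 and 53.5 in mock tips (log2 -1.90, SE 0.89). UGT78D3, which encodes a glycosyltransferase acting on flavonols, read 12.7 and 0.660 in steroid tips, against 53.8 and 14.2 in mock tips (log2 -1.83, SE 0.81). The steroid and mock arrays of UGT78D3 nearly met, at 12.7 and 14.2. The other 7 genes were AT4G14815 (log2 -1.91), AT1G70150 (-1.88), AT2G13230 (-1.74), AT1G23410 (-1.72), AT4G21865 (-1.66), AT4G01380 (-1.65) and AT3G20200 (-1.58). Leaving out 1 array brought 7 of the 12 down by over 1.5 times in log2. Without steroid replicate 2 the values were -0.65 for AT1G23410, -0.60 for AT3G20200, -0.89 for AT4G01380 and -0.94 for UGT78D3. Without steroid replicate 1 they were -0.85 for AT4G21865 and -1.10 for AT1G70150, and without mock replicate 2 that of SWEET14 was -0.92. In AT1G23410 the steroid arrays read 21.3 and 1.45, against 41.7 and 30.6 in mock tips, so the distance rests largely on the second of them. Lowest among the unnamed probe sets were 263635_at (log2 -2.42), 261979_at (-2.18), 253952_at (-2.07) and 266389_s_at (-2.01), which matches several genes, all with a limma adjusted p = 0.999.

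The size of a day 1 difference depended on the level at which a probe set was read. The tested probe sets were put into 4 bins of equal size by mean day 1 signal. In the lowest bin the median residual SD was 0.634 in log2, and the 5th and 95th percentiles of the difference were -1.12 and 1.25. In the third bin the SD was 0.265 and the same percentiles were -0.51 and 0.49. In the highest bin, from a mean of 91.2 up, they were -0.63 and 0.34, so bright probe sets leaned to the lower side. Among the 4128 probe sets of the lowest bin, 347 were at least 2-fold higher and 252 at least 2-fold lower with separated groups. The second bin held 84 and 65 such probe sets of 4128, and the third 8 and 6 of 4127. In the highest bin, of 4128, 6 were at least 2-fold higher and 35 at least 2-fold lower with separated groups.

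**Figure D2:**
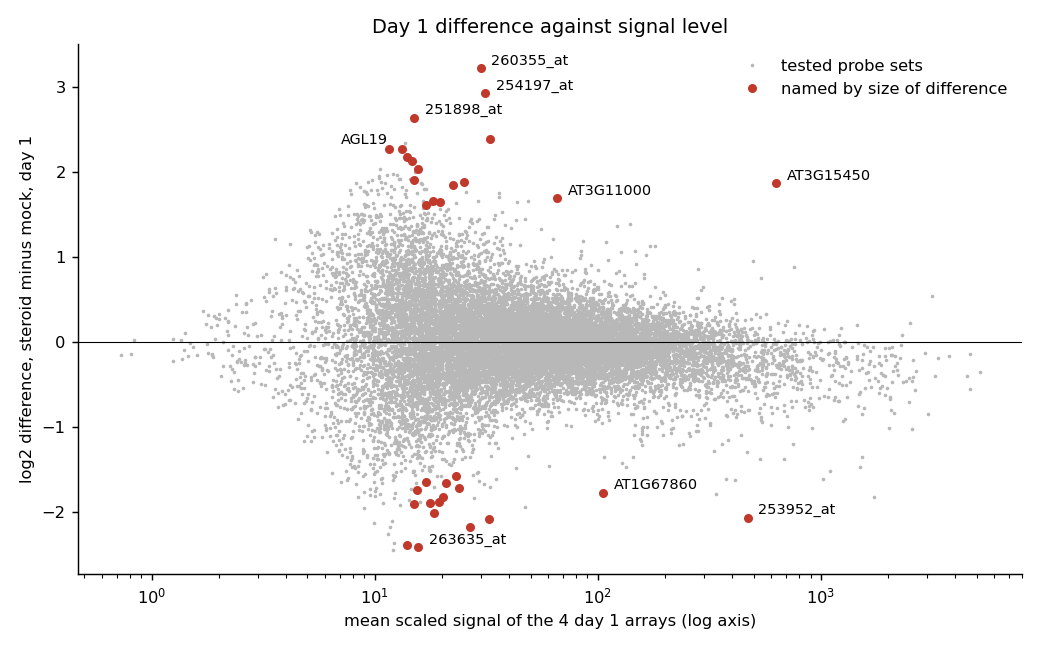
Day 1 difference in log2 (steroid minus mock) against the mean scaled signal of the 4 day 1 arrays (log axis), for 16511 tested probe sets (grey) and those named for the size of their difference (red). Differences spread widely at low signal, and at high signal more probe sets lie below 0 than above it.

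The bright probe sets on the lower side turned on 1 mock array. Mock replicate 1 read above mock replicate 2 in 34 of these 35, against 8497 of all 16511 tested. Against mock replicate 1 all 35 were at least 2-fold lower, with a median log2 of -1.76, and against mock replicate 2 only 3 were, with a median of -0.62. AT5G43830 shows the pattern: 49.9 and 49.9 in steroid tips, against 362 and 53.3 in mock tips. PRXR1, a peroxidase gene, read 733 and 787 in steroid tips, against 3527 and 1083 in mock tips. AT3G24830 read 619 and 804 in steroid tips, against 3421 and 1136 in mock tips. In AT5G57290 as well, at 63.0 and 66.1 in steroid tips against 366 and 80.0 in mock tips, mock replicate 1 stood far above the other 3 arrays. Both AT5G43830 and AT5G57290 were among the 16 called without mock replicate 2. Less dependent on 1 array was AT4G39200, at 302 and 432 in steroid tips, against 1322 and 677 in mock tips (log2 -1.38, SE 0.33, and -0.90 within scan 5). These bright genes, and those of the next paragraph, were chosen after their values were seen. Mock replicate 1 was also the array read in its own scan and the one with the lowest GAPDH ratio of the 4. Its ubiquitin ratio, taken in the same way, was the highest of the 4 at 6.79, and its actin ratio of 5.22 lay between those of the others. The part of scan or RNA quality in these values was not tested.

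On the higher side, 4 of the 6 bright probe sets were at least 2-fold higher against mock replicate 1 alone and 4 against mock replicate 2 alone. The named ones were AT3G15450, AT3G19550 and psbI. AT3G19550 read 157 and 251 in steroid tips, against 57.8 and 93.2 in mock tips (2.61-fold, log2 1.38, SE 0.38, 1.06 within scan 5). The photosystem II gene psbI, encoded in the plastid, read 236 and 166 in steroid tips, against 83.8 and 101 in mock tips (log2 1.07, SE 0.31). In both genes the lower steroid array exceeded the higher mock array by over 1.5 times. Under 2-fold, the next named genes of this bin were the plastid ribosomal protein gene rps3 (log2 0.96), AT4G27450 (0.91) and the photosystem I gene psaJ (0.90). AT4G27450 read 141 and 256 in steroid tips, against 118 and 82.6 in mock tips.

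Days 3 and 7 were measured on other arrays, with their own mock samples, so they show whether the day 1 differences were read again. On day 7 both mock arrays were read in scan 1 and both steroid arrays in scan 2, so steroid and scan cannot be told apart there. On day 3 both mock arrays and steroid replicate 1 were read in scan 4. Steroid replicate 2 of day 3 was read in scan 5, as both day 1 steroid arrays were. The 100 probe sets furthest on the higher side, with separated groups and a mean at or above the array median, tended to be higher again. On day 3, 64 of the 100 lay above 0, against 31% of the 12060 probe sets with such a mean, and their median log2 was 0.21, against -0.14 over those 12060. Both steroid arrays of day 3 lay above both mock arrays in 32 of them and below in 11, against 7.65% and 21.9% of the 12060. On day 7, 64 lay above 0, against 48.6%, and 31 were separated upward and 18 downward, against 22.7% and 23.9%. The median on day 7 was 0.09, far under the day 1 median of 1.43. With the 200 highest in place of 100, the medians were 0.11 on day 3 and 0.03 on day 7, and 55% and 54.5% lay above 0. The 12060 were not matched by signal level to these sets or to the 100 lowest below. The part of signal level in these shares was not tested.

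The 100 probe sets furthest on the lower side did not recur in that way. On day 3, 62 of the 100 lay below 0, against 69% of the 12060, with a median of -0.18, and 24 were separated downward, against 21.9%. On day 7, 36 lay below 0, against 51.4%, and 17 were separated downward and 39 upward, against 23.9% and 22.7%. Their median on day 7 was 0.10, on the other side of 0 from the day 1 median of -1.38.

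**Figure D3:**
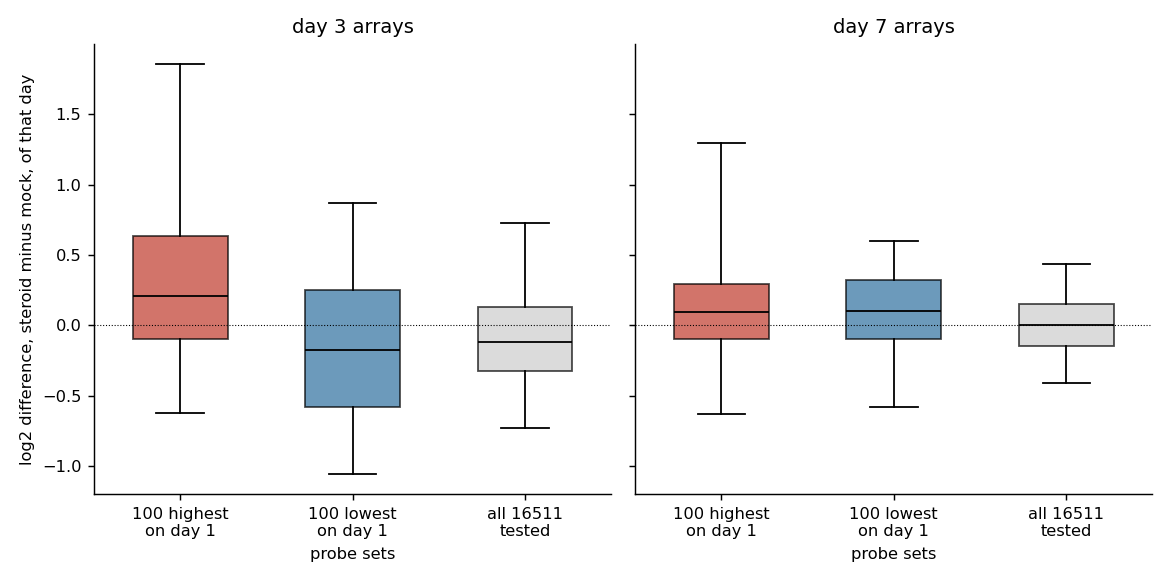
Log2 difference between steroid and mock arrays of day 3 (left) and day 7 (right) for the 100 probe sets highest on day 1, the 100 lowest on day 1 and all 16511 tested; boxes are quartiles with the median, whiskers the 5th and 95th percentiles. The 100 highest have medians of 0.21 and 0.09, the 100 lowest -0.18 and 0.10.

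Over all 3 days both steroid arrays lay above both mock arrays of the same day for 88 probe sets (0.533%) and below for 175 (1.06%). Since chance separates 2 against 2 arrays in either direction with a probability of 0.333 on each day, many of these are expected by chance. How many was not tested, so separation on all 3 days does not by itself set a probe set apart. Of the 88, 14 were at least 2-fold higher on day 1 with a mean at or above the array median, and of the 175, 4 were at least 2-fold lower. Those not named above were singled out here after their values were seen. Log2 differences of 260355_at over days 1, 3 and 7 were 3.22, 3.61 and 6.39. That of 251898_at was 2.64, 3.35 and 4.66 on days 1, 3 and 7. AT3G11000 (1.69, 1.85 and 2.50) and AT3G19550 (1.38, 0.89 and 2.49) also had their largest difference on day 7, but not their highest steroid signal. The means of AT3G19550 over the 3 days were 204, 152 and 129 in steroid tips, against 75.5, 80.7 and 19.1 in mock tips. Those of AT3G11000 were 102, 136 and 123 in steroid tips, against 28.8, 35.0 and 18.2 in mock tips. Probe set 254595_at, without a name here, read 296 and 173 in day 1 steroid tips, against 152 and 66.5 in mock tips (log2 1.13), and had 2.20 on day 3 and 2.11 on day 7.

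AGL19 and YAB5 instead had their largest difference on day 1. So did most of the other probe sets of this choice, which asked for a difference of at least 2-fold on that day. On the day 7 arrays the GAPDH ratio ran from 1.09 to 1.41 and the deposited median from 62.6 to 95.2, unlike the day 1 arrays. Differences of day 1 and day 7, here and above, were therefore not measured at like RNA and signal quality. AGL19 had log2 2.27 on day 1, 1.29 on day 3 and 0.62 on day 7. YAB5, a YABBY family gene of the lower side of lateral organs, read 41.8 and 13.2 in day 1 steroid tips, against 4.62 and 6.68 in mock tips (log2 1.52), and had 0.41 on day 3 and 0.29 on day 7. The steroid arrays of YAB5 differed from each other by more than the lower of them differed from the mock arrays. 261768_at (2.38, 1.93 and 1.76), 263735_s_at (2.00, 2.01 and 0.61) and 265901_at (1.62, 0.79 and 0.48) had no single gene name. AT1G22600 (1.30), AT2G17850 (1.25), 251560_at (1.22) and AT1G12730 (1.10) completed the higher ones on day 1. The 4 on the lower side were AT4G21865 (-1.66, -1.19 and -0.60), 247717_at (-1.63, -0.82 and -0.42), AT2G23950 (-1.49, -0.99 and -0.74) and AT4G39200 (-1.38, -0.56 and -0.27).

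**Figure D4:**
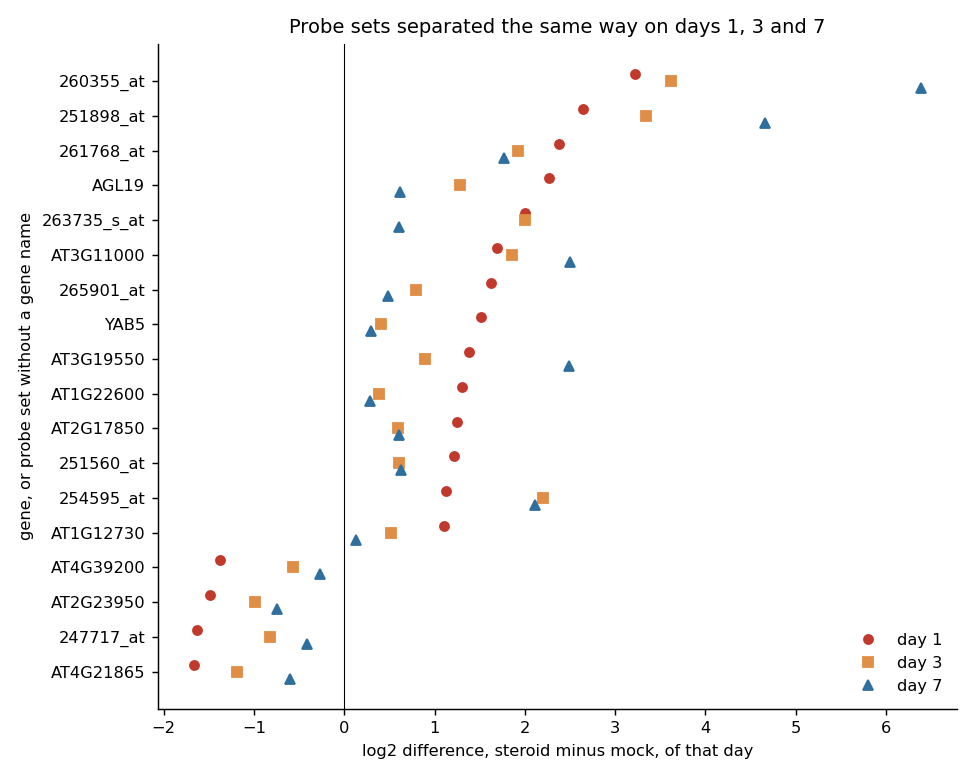
Log2 difference, steroid minus mock, on day 1 (circles), day 3 (squares) and day 7 (triangles) for the 18 probe sets whose steroid and mock arrays were separated the same way on all 3 days and that differed at least 2-fold on day 1. In 260355_at, 251898_at, AT3G11000 and AT3G19550 the day 7 value is the largest, and in AGL19 and YAB5 the day 1 value is.

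Some day 1 differences were far smaller, or on the other side, later. Probe set 254197_at had log2 2.93 on day 1, 0.28 on day 3 and 0.15 on day 7, and 263333_at had 2.27, 0.59 and -0.10. AT1G80450 (2.13) and AT2G13970 (1.85) lay on the other side on day 3, at -0.52 and -0.85, with groups again separated. AT2G37070 had -2.39 on day 1 and 1.34 on day 3. The difference between days was tested directly: limma called 0 probe sets for day 3 minus day 1 (0%), with 380 (2.3%) at an unadjusted p under 0.05, and 0 for day 7 minus day 1 in the 12-array fit (0%), with 725 (4.39%). For 254197_at the day 3 minus day 1 test gave an adjusted p = 0.9999, and the day 7 minus day 1 test an adjusted p = 0.908. No difference is therefore shown to belong to day 1 alone.

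Gene lists were read in the same fit, and limma called 0 members of any of them on day 1. No value is given under the names of AGAMOUS, AP3, PI or the other floral organ identity genes, since the annotation used here pairs no probe set with those names. Their probe sets may be among the 7279 tested without a single gene name, of which some are given above by identifier. Whether these genes differed on day 1 is therefore not answered here. Of 8 carpel and ovule regulators tested, 3 lay above 0, with a median log2 of -0.04, against -0.03 for all tested probe sets. The carpel bHLH genes SPT (-0.02) and ALC (0.11) were among the 8. ALC read 660 and 942 in steroid tips, against 766 and 699 in mock tips, and the groups overlapped. SEU, encoding a co-regulator known to repress AGAMOUS with LEUNIG, read 76.5 and 84.2 in steroid tips, against 64.1 and 65.0 in mock tips (log2 0.30, SE 0.28).

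Of 4 stamen and anther regulators tested, 1 lay above 0. ROXY1, a glutaredoxin gene of petal and anther development, read 10.99 and 3.69 in steroid tips, against 12.8 and 34.8 in mock tips (log2 -1.22, SE 0.62). NUB, whose zinc finger protein acts in organ growth, read 8.44 and 5.80 in steroid tips, against 10.8 and 17.1 in mock tips (log2 -0.66). All 8 of these signals of ROXY1 and NUB except the 34.8 lay under the array median. EMS1, a receptor kinase gene of the anther, had log2 -0.05.

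Of 7 inflorescence and meristem regulators tested, 1 lay above 0, against 47.1% of all tested probe sets, and 3 had both steroid arrays below both mock arrays, against 17.1% of all. Their median was -0.17. AGL72, a MADS-box gene related to SOC1 that promotes flowering, read 40.5 and 29.6 in steroid tips, against 50.1 and 65.9 in mock tips (log2 -0.67, SE 0.33), and its groups were also separated downward on days 3 (-0.64) and 7 (-0.52). The related gene AGL71 read 156 and 226 in steroid tips, against 255 and 249 in mock tips (log2 -0.41, SE 0.26). PHV, a homeodomain gene of the upper side of organs, had -0.31. AGL24, a MADS-box gene of inflorescence identity, read 176 and 108 in steroid tips, against 232 and 102 in mock tips (log2 -0.15). Its groups overlapped. Of the markers chosen for the labelled inflorescence tissue, AGL24 lay above the array median on all 4 arrays, and UFO lay below it on all 4. UFO, which was not tested, read 13.1 and 1.72 in steroid tips, against 2.62 and 1.67 in mock tips. CLV3, the stem cell signal gene, read 13.3 and 43.0 in steroid tips, against 29.3 and 27.1 in mock tips, with groups that overlapped.

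Of 5 gibberellin genes tested, 2 lay above 0, with a median of -0.12. SLY1, encoding the F-box protein that marks DELLA repressors for breakdown, read 46.1 and 37.1 in steroid tips, against 97.0 and 49.2 in mock tips (log2 -0.69, SE 0.36). The receptor gene GID1B read 14.2 and 14.0 in steroid tips, against 25.6 and 16.2 in mock tips (log2 -0.43, SE 0.68). Of 5 REM and related B3-domain genes, 4 lay above 0, and AT2G35310 read 80.2 and 73.9 in steroid tips, against 67.6 and 63.0 in mock tips (log2 0.22); its groups were separated upward on days 3 (0.57) and 7 (1.49) as well. Of 14 auxin genes, 9 lay above 0, with a median of 0.26, which was -0.0056 without mock replicate 1. The auxin-conjugating enzyme gene GH3.17 read 35.8 and 60.7 in steroid tips, against 67.3 and 102 in mock tips (log2 -0.77, SE 0.33). GH3.17 was separated downward on days 3 (-0.85) and 7 (-0.66) too.

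Of 41 cell wall genes, 17 lay above 0, with a median of -0.14, and the expansin gene EXPA15 read 36.9 and 43.0 in steroid tips, against 83.3 and 57.4 in mock tips (log2 -0.74). Of 11 signalling peptide genes, 3 lay above 0, with a median of -0.43, which ran from -0.49 to -0.12 over the alternatives. RALFL34, one of the RALF peptide genes, read 302 and 350 in steroid tips, against 548 and 402 in mock tips (log2 -0.53). Of 22 serine carboxypeptidase-like genes, 13 lay above 0; scpl38 read 26.3 and 34.4 in steroid tips, against 2.31 and 20.2 in mock tips (log2 1.43). All 4 tested members of the touch, wounding and jasmonate list, which are calmodulin-like genes on this array, lay above 0, led by CML43 at 18.8 and 34.7 in steroid tips, against 3.08 and 9.30 in mock tips (log2 1.58). Of 7 cell cycle genes, 3 lay above 0, in a range from -0.28 to 0.15. The median was 0.13 over 10 cytochrome P450 genes, 0.05 over 13 SWEET and sucrose transporter genes, 0.05 over 36 glycosyltransferase and beta-glucosidase genes, 0.01 over 7 glutathione transferase genes and 0.07 over 5 WRKY genes. It was 0.43 over 2 cytokinin genes and 0.16 over 2 heat shock genes, and the homeobox list held PHV alone.

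**Figure D5:**
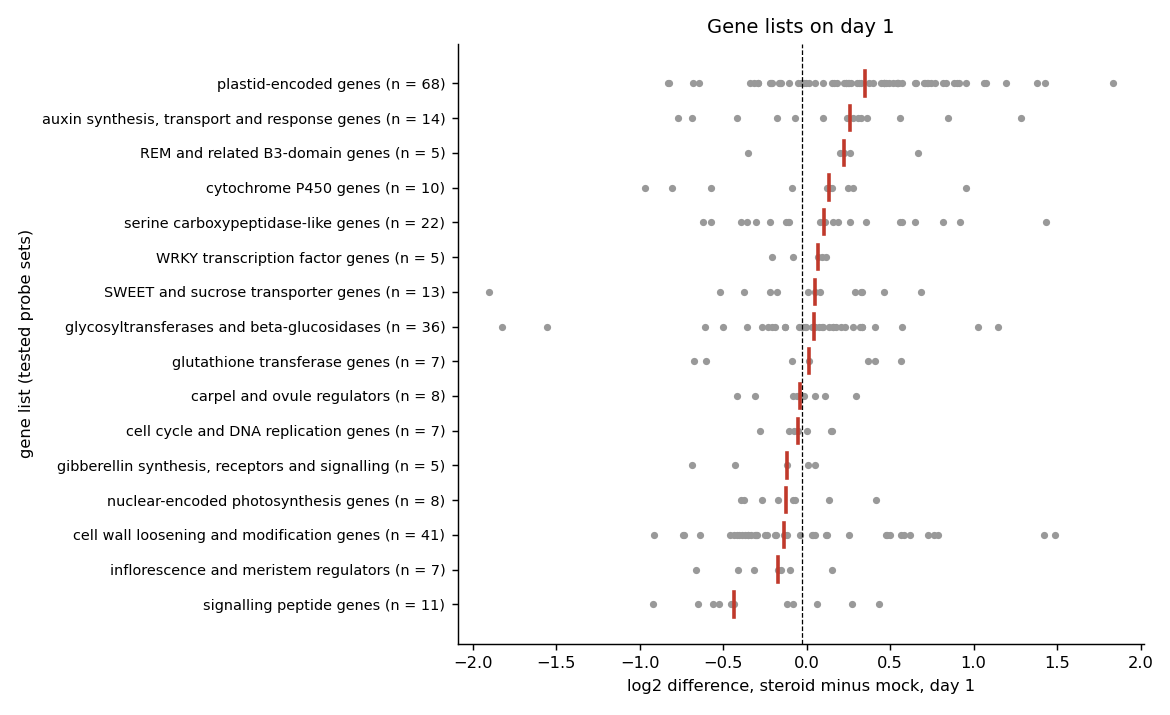
Day 1 log2 difference (steroid minus mock) of each tested member (grey points) of the gene lists with at least 5 tested members, with the list median (red bar) and the median of all tested probe sets (dashed line, -0.03). List medians lie between -0.43 and 0.35, and the members of most lists lie on both sides of 0.

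Of the lists with at least 5 tested members, that of plastid-encoded genes had the highest median. Of 68 tested, 49 lay above 0, against 47.1% of all tested probe sets (52.9% lay below 0), and the median was 0.35. In 21 of them both steroid arrays lay above both mock arrays, against 14.1% of all, and in 4 below both. The list's median log2 signal was 6.02 and 5.45 on the steroid arrays, against 5.73 and 5.23 on the mock arrays, so the groups overlapped, and replicate 1 was the higher array in each group. The largest named difference with separated groups and a level at the array median was that of rpl16, a plastid ribosomal protein gene, at log2 1.38. The plastid list's median ran from -0.0048 to 0.78 over the alternatives. Of the 8 nuclear photosynthesis genes tested, as markers of leaf tissue, 2 lay above 0, with a median of -0.13 and list levels of 7.70 and 7.13 on the steroid arrays, against 8.03 and 7.24 on the mock arrays. The trichome and epidermis list had 1 tested member, the trichome patterning gene TRY, at 30.3 and 15.4 in steroid tips, against 22.0 and 11.4 in mock tips (log2 0.36), with groups that overlapped.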

How the data were processed

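Signal intensity per probe set and array was deposited by the authors on a linear scale, and MAS5 is the tool named per the submitters' processing notes; its version, target and scaling are not given in the sources used here. The scan of each array was read from the deposited instrument files. Of the deposited values, 64 array controls were left out, and the remaining 22746 probe sets were scaled so that every array had a median of 24.8. Before log2, 4.35 was added to each scaled value; this offset is the 20th percentile, as the median of the 12 arrays. A probe set was tested where at least 2 of 12 arrays exceeded their own 40th percentile, which left 16511, of which 9232 had a single gene name. Names came from the platform annotation, updated by gene identifier to RefSeq (TAIR10.1).

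Group means were fitted to the 8 arrays of days 1 and 3 with limma 3.58.1 in R 4.3.3 (lmFit, eBayes with a variance trend, 4 residual and 8.87 prior degrees of freedom), two-sided, with Benjamini-Hochberg adjustment over all tested probe sets; day 7 values come from a 12-array fit. The fit was checked on simulated data. Replicates are described as independent samples; how plants were pooled is not stated, and the number of arrays limits the precision. The rule for named genes took every called probe set, the 12 named ones highest and lowest on day 1 with separated groups and a mean at or above the array median, 4 unnamed each way, and up to 2 such members of each of 27 gene lists. Any named member of the floral and gibberellin lists could also be given. Members, lists and rules were chosen with earlier results of these data known, and the patterns of the cytochrome P450, heat shock, photosynthesis and organelle lists were changed after the names on the array were seen. The symbol FDH was taken off the epidermis list, because the array's gene of that name encodes formate dehydrogenase. The mitochondrial, vascular, MYB, arabinogalactan and floral organ identity lists had no tested member. The mitochondrial list was matched by chromosome through gene identifiers, which did not match for ccb206, so that gene stood in no list. Alternatives covered the arrays in the fit, weights, normalization, offset, filter, variance trend, replicate and scan blocks and leaving out each array. Sequences were not used.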

Additional observations from a re-analysis of the deposited data

How the results depend on the processing

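The day 1 count of 0 became 3 with all 12 arrays in the fit (3 higher), 2 with the deposited values left unscaled (254197_at and 260355_at) and 3 with replicate number as a block (254197_at, 260355_at and, lower, AT1G67860). Leaving out 1 array gave 0 to 16, the 16 being without mock replicate 2. The labels do not say that replicate numbers pair the samples, and same-numbered deviations correlated by 0.124 between treatments on day 1, 0.0996 on day 3, 0.124 between the mock arrays of both days and 0.203 between the steroid arrays. Since the day 3 value was not over 0.1, the block is an alternative only. The other 10 alternatives gave 0, and no alternative called a difference between days 1 and 3. Directions held under every alternative for the genes named by size of difference. Near 0 they did not: SPT was 0.0608 with quantile normalization and 0.0085 unscaled, EMS1 was 0.22 and AGL24 0.43 with the scan as a block. Without 1 array SPT ran from -0.15 to 0.12, ALC from -0.15 to 0.36, EMS1 from -0.32 to 0.22, AGL24 from -0.73 to 0.43 and CLV3 from -0.88 to 0.54; the cause was not tested. The median of the plastid list ran from -0.0048 to 0.78 over all alternatives, that of the cell cycle list from -0.26 to 0.31, that of the auxin list from -0.0056 to 0.33 and that of the glutathione transferase list from -0.30 to 0.37. With 50 or 200 probe sets in place of 100, the medians on days 3 and 7 kept their sign, but with 200 those of the higher side were 0.11 and 0.0288. Signals near the offset limit what differences of weak genes can show.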
